A study of Gallus gallus with 77 samples.

Results

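The genes described here are 5 genes of the circadian clock, *PER1*, *PER2*, *TIMELESS*, *CLOCK* and *BHLHB3*, taken by their names from the 1507 genes on a transcription factor (TF) array. They were chosen by name and not by a measured value. The study names these genes, with *CREB1*, as a group in the regenerating cochlea, and it did so partly on the arrays analysed here, so the list is not independent evidence of any direction. Isolated sensory epithelia (SE) of the cochlea of White Leghorn chicks, taken in the weeks after hatching, were grown in culture until semi-confluent and given linear wounds with a pulsed laser microbeam, and RNA was collected after recovery for 30 min or for 1, 2 or 3 hrs. Unlesioned cultures, handled alike but not wounded, were the controls of each time point. The amplified RNA of a wounded sample and of its control, in different dyes (Cy3 and Cy5), were hybridized together to human probes on each of 77 arrays, which came from 2 biological replicates at each of 4 time points. Within a replicate the arrays repeat 1 pair of RNAs in either dye assignment. The p-values below therefore rest on the 8 biological replicates, except in the alternatives over arrays at the end.

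The clock of vertebrates is a feedback loop in which *CLOCK* and its partner *ARNTL* (BMAL1) switch on genes of the Period and Cryptochrome families, whose proteins return to the nucleus and stop that activity. *PER1* and *PER2* are Period genes, known in mammals to respond within hours to light, serum and stress hormones. *BHLHB3* (DEC2, now *BHLHE41*) is a repressor that competes for the same DNA element, and *TIMELESS* is named after a clock gene of *Drosophila*, although in vertebrates its best known work is at the DNA replication fork.

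The quality of the arrays sets the limits of what follows. The median gene was 3.27 times as bright as its local background on the median array (range over arrays 2.02 to 31.3). Of 10 TFs that mark the inner ear SE, 9 were on the array, 0 of them were below the detection limit at every time point, and 1 was detected at all of them. The lists of mesenchyme, neuron, blood and muscle markers likewise held no gene that was below the limit at every time point, and the contribution of each cell type was not tested. Of the 36 values of SE markers (9 genes at 4 time points), 0 had an adjusted p under 0.05 in the laser over control ratio in limma and 2 had an unadjusted p under 0.05, where 6.57% of all combinations of gene and time point did. An unadjusted p under 0.05 was found for 1 of 12 values of neuron markers, 1 of 12 of blood, 1 of 8 of muscle and 0 of 16 of mesenchyme. In such cultures, fewer cells of a type and less RNA in each cell cannot be told apart.

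All 5 genes were spotted in duplicate, and all 5 passed the signal minimum, a mean raw signal of at least 1000 at 1 or more time points. *PER1*, *PER2*, *TIMELESS* and *CLOCK* were above it at 4 of 4 time points. *BHLHB3* was above it at 2 (mean signal 1227 at 1 hr and 1217 at 2 hrs) and below it at 30 min (879) and at 3 hrs (725). None of the 308 spot values of any of the 5 genes was at the ceiling of the scanner, and the brightest was 20501, for *TIMELESS*.

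By a stricter rule, a gene counts as detected at a time point when 80% or more of the arrays show a signal of 1000 or more. The 5 genes were detected in 11 of 20 combinations of gene and time point, against 66.8% of all combinations on the array. At 1 hr and 2 hrs, *PER1*, *PER2*, *TIMELESS* and *CLOCK* were all detected, each in at least 93.3% of the arrays. At 30 min only *CLOCK* was, in 20 of 25 arrays, while *PER1* reached the limit in 19, *TIMELESS* in 16, *PER2* in 14 and *BHLHB3* in 7. At 3 hrs *PER1* (17 of 20 arrays) and *TIMELESS* (16 of 20) were detected, and *CLOCK* and *PER2* were not (15 of 20 each). *BHLHB3* was detected at 0 of 4 time points, with 4 of 20 arrays over the limit at 3 hrs. Of all genes on the array, 32.1% were detected at 30 min, 92.2% after 1 hr, 85.5% after 2 hrs and 57.3% after 3 hrs.

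**Figure D1:**
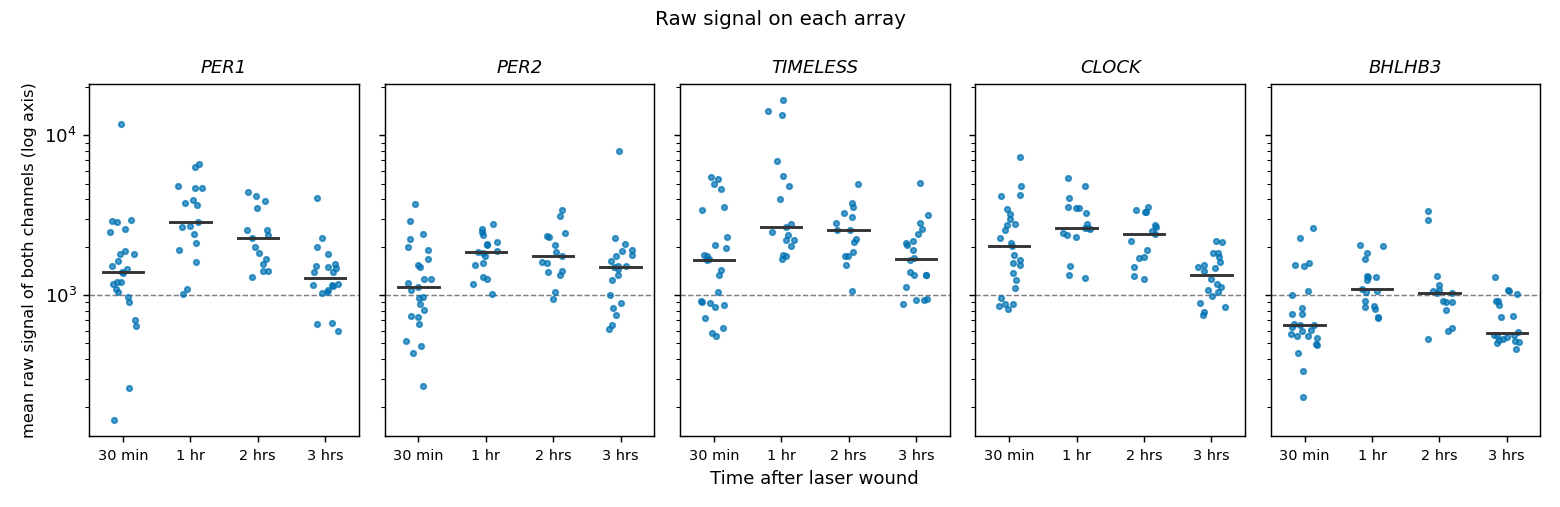
Mean raw signal of both channels (log axis) of each clock gene on every array, by time after the laser wound, with the median of a time point as a bar and the limit of 1000 as a dashed line. *BHLHB3* lies around or below the limit at every time point, and the signals of *PER1* at 30 min run from 164 to 11852.

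The first question was whether wounding changed the amount of clock gene RNA. The log2 ratio of laser over control was averaged over both dye orientations of each replicate, and over the 5 genes and 4 time points it stayed between −0.12 and 0.16. Of these 20 values, 0 reached an adjusted p under 0.05 in limma, 0 had an unadjusted p under 0.05 and 0 exceeded 1.2-fold. The background was equally empty, with 0% of the 1504 genes tested called at any time point after adjustment, while 6.57% of all combinations of gene and time point had an unadjusted p under 0.05. The 95% interval stayed within 1.5-fold in either direction for 20 of 20 values and within 1.2-fold for 10 of 20, and the other 10 intervals reached past 1.2-fold. These intervals hold for the array ratio and do not bound the change in RNA. The paper reports that this cross-species array in general gave smaller changes than quantitative PCR. The median size of the ratio was 0.08 for the clock genes and 0.06 for all genes. The study's calls of *PER1*, *PER2* and *TIMELESS* after laser wounding were thus not found again, and the reason was not tested.

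The chicken genome reference has no entry under *PER1*, which encodes a Period repressor, and what its human probe bound was not tested. The *PER1* ratios were 0.12 and −0.05 in replicates 1 and 2 at 30 min. They were 0.09 and 0.09 an hour after wounding, 0.12 and −0.18 after 2 hrs and 0.08 and −0.01 after 3 hrs. Replicates took opposite signs at 3 of 4 time points and agreed at 1 hr. The mean at 1 hr was 0.09 (standard error 0.09, unadjusted p = 0.317 in limma), and the 95% interval ran from −0.10 to 0.28.

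*PER2*, the other Period gene among the 5, was at 0.10 and 0.07 in the replicates of 30 min, 0.01 and 0.10 in those of 1 hr, −0.20 and 0.20 in those of 2 hrs, and 0.20 and 0.13 in those of 3 hrs. It was above 0 in 7 of 8 replicates, the most of the 5 genes, and the replicates at 2 hrs lay on opposite sides of 0. The mean over time points was 0.08 (standard error 0.05, unadjusted p = 0.126, adjusted p = 0.945 in limma). At 3 hrs the interval ran from −0.04 to 0.36, the highest upper limit among the 20 values.

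*TIMELESS* was at 0.04 and 0.16 (30 min), −0.12 and 0.18 (1 hr), 0.11 and 0.08 (2 hrs), and −0.07 and −0.13 (3 hrs). Both replicates were above 0 at 30 min and 2 hrs and below 0 at 3 hrs. The difference between 3 hrs and 2 hrs was −0.19 (standard error 0.12, unadjusted p = 0.133 in limma), which is not resolved.

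*CLOCK*, the activator of the loop, was at −0.08 and −0.00 (30 min), 0.06 and 0.11 (1 hr), −0.05 and −0.03 (2 hrs), and −0.02 and −0.11 (3 hrs). Both replicates had the same sign at 4 of 4 time points, above 0 only at 1 hr, but the values were small, and replicate 2 of 30 min was next to 0. Both replicates had 1 sign in 52.7% of all combinations of gene and time point. Its mean over time points was −0.02 (standard error 0.04, 95% interval −0.10 to 0.06), the narrowest interval of the 5.

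*BHLHB3*, the repressor, was at 0.21 and −0.02 (30 min), −0.05 and −0.18 (1 hr), −0.18 and −0.01 (2 hrs), and 0.05 and 0.11 (3 hrs). It lay below 0 in both replicates at 1 hr and 2 hrs and above 0 in both at 3 hrs, where its mean signal was under the minimum. The mean at 1 hr was −0.12 (standard error 0.09, unadjusted p = 0.199 in limma), the lowest of the 20 values.

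**Figure D2:**
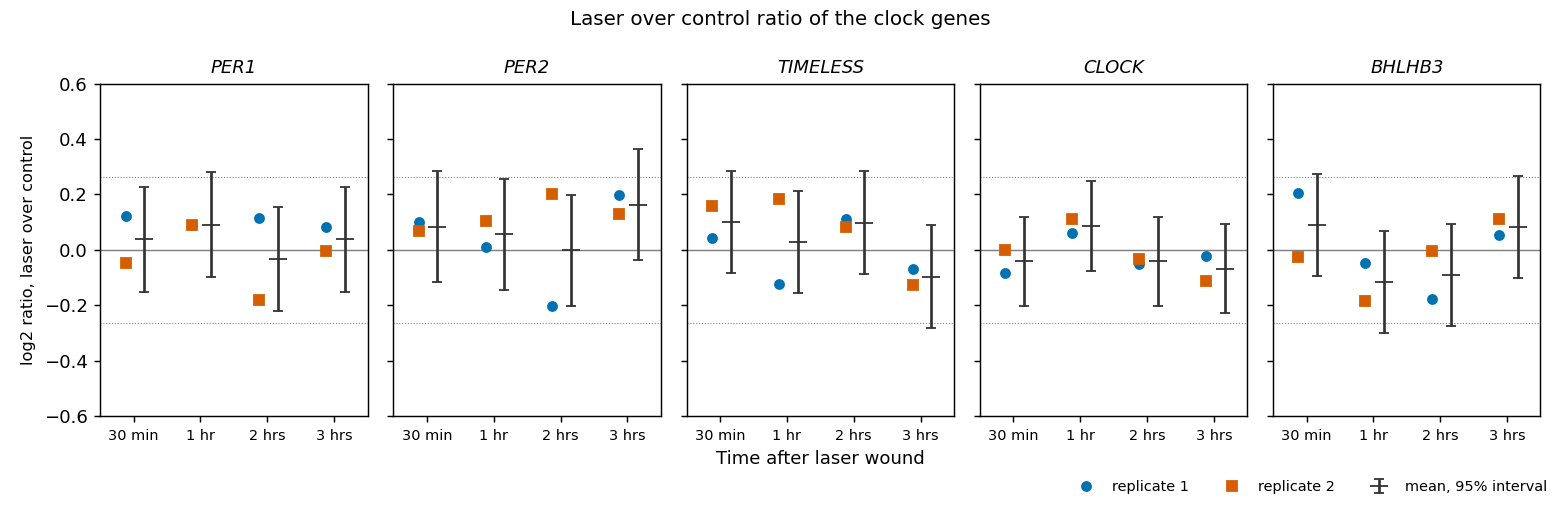
Log2 ratio of laser over control for each clock gene and time point, with both biological replicates as points and the limma mean with its 95% interval beside them. The dotted lines mark 1.2-fold, and all 20 intervals include 0.

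Between time points, 30 contrasts of the laser ratio (6 for each gene) ran from −0.21 to 0.20, with a smallest unadjusted p of 0.111 and a smallest adjusted p of 0.482 in limma. A moderated F-test across all 4 time points gave an unadjusted p under 0.05 for 0 of 5 (smallest 0.223, for *BHLHB3*), against 8.18% of all genes. By array rather than by replicate, no clock gene had the same sign in 80% of the arrays of a time point, a proportion that 1.99% of all combinations of gene and time point reached. The nearest was *PER1* at 3 hrs, above 0 in 15 of 20 arrays.

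The second question was how much of a single array's ratio followed the dye. In all 8 replicates, laser over control ratios from both dye orientations were negatively correlated across genes, although each had been given the same direction (r from −0.64 to −0.24). The image name stored for each of the 77 arrays nevertheless gives the same dye for the laser RNA as its title. Whether the negative correlation comes from the dyes or from the labels was not tested, so the direction of the ratios rests on the labels. Values with no array turned are given as well. Those values are the dye effect, Cy5 over Cy3, for which the orientations are averaged without turning either. In 27 of 40 combinations of clock gene and replicate, the orientations had opposite signs, against 66.9% over all genes.

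*CLOCK* showed the clearest difference between the dye orientations. Its laser over control ratio was above 0 in 8 of 8 replicates where Cy3 held the laser RNA and in 0 of 8 where Cy5 did. The means over the time points were 0.35 and −0.38. Opposite signs in all 8 replicates were found for 7.65% of all genes (115 of 1504).

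As a dye effect, *CLOCK* was at −0.23 and −0.85 in the replicates of 30 min, −0.42 and −0.15 in those of 1 hr, −0.31 and −0.07 in those of 2 hrs, and −0.28 and −0.57 in those of 3 hrs. Every replicate was below 0 (1 sign in all 8 was found for 18.2% of genes), where Cy3 is the brighter dye after normalization, and the replicates of 30 min differed more than those of other time points. The mean was −0.36 (standard error 0.07, adjusted p = 0.00113 in limma), at which 39.2% of all genes were called. After normalization Cy5 was the dimmer channel on 68 of 77 arrays. Before it, the raw median signal over all arrays was 2094 in Cy3 and 1864 in Cy5. By time point it was higher in Cy3 at 30 min, 1 hr and 3 hrs, and lower at 2 hrs (2108 in Cy3 and 2648 in Cy5). In the deposited ratios, which are not normalized, the mean dye effect was −0.03. At single time points, only the value of 30 min had an adjusted p under 0.05 (−0.54, adjusted p = 0.0408 in limma), as 3.79% of all genes had there. It rested largely on replicate 2, without which 1 value, −0.23, remained.

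*BHLHB3* had the opposite dye effect, at 0.43 and 0.44 (30 min), −0.00 and −0.10 (1 hr), 0.24 and 0.14 (2 hrs), and 0.16 and 0.44 (3 hrs). Cy5 was the brighter dye after normalization in 6 of 8 replicates, all of them outside 1 hr, and on 57 of 77 arrays. The mean over time points was 0.22 (standard error 0.05, adjusted p = 0.00284 in limma), and at 30 min the effect was 0.44 (adjusted p = 0.0178). The orientations gave laser over control means of −0.23 (laser RNA in Cy3) and 0.21 (in Cy5). The signal behind the value of 30 min was below the minimum, with a median of 467 in Cy3 and 821 in Cy5.

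*PER2* had no uniform dye effect, with 0.02 and −0.24 (30 min), 0.10 and 0.03 (1 hr), 0.19 and −0.06 (2 hrs), and 0.23 and 0.47 (3 hrs). The values of 3 hrs stood above the rest, with a mean of 0.35 (adjusted p = 0.0459 in limma, a level that 10.9% of genes reached there), and the laser over control ratio was 0.51 from arrays with the laser RNA in Cy5 and −0.19 from the others. Its contrast of 3 hrs against 30 min had an unadjusted p of 0.007 and an adjusted p of 0.304. With a replicate of 3 hrs left out, 1 value remained there, 0.47 without replicate 1 and 0.23 without replicate 2. A single value cannot show whether the call is stable.

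The dye effect of *PER1* was 0.24 and 0.27 (30 min), 0.02 and −0.13 (1 hr), −0.24 and −0.21 (2 hrs), and 0.04 and −0.09 (3 hrs). Both replicates of 30 min lay above both of 2 hrs, and the contrast (−0.48, standard error 0.13) had an unadjusted p of 0.00199 and an adjusted p of 0.111 in limma, the smallest among the 30 contrasts of the dye effect. *TIMELESS* was between −0.23 and 0.07 in the first 3 time points and at −0.11 and −0.35 at 3 hrs, where the mean of −0.23 had an unadjusted p of 0.0289 and an adjusted p of 0.139.

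In total, 3 of 20 dye effects had an adjusted p under 0.05, against 9.97% of all combinations of gene and time point, and 8 of 20 an unadjusted p under 0.05, against 26.6%. The median size of the dye effect was 0.19 for the clock genes, or more than that of their laser ratio, and 0.13 for all genes.

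**Figure D3:**
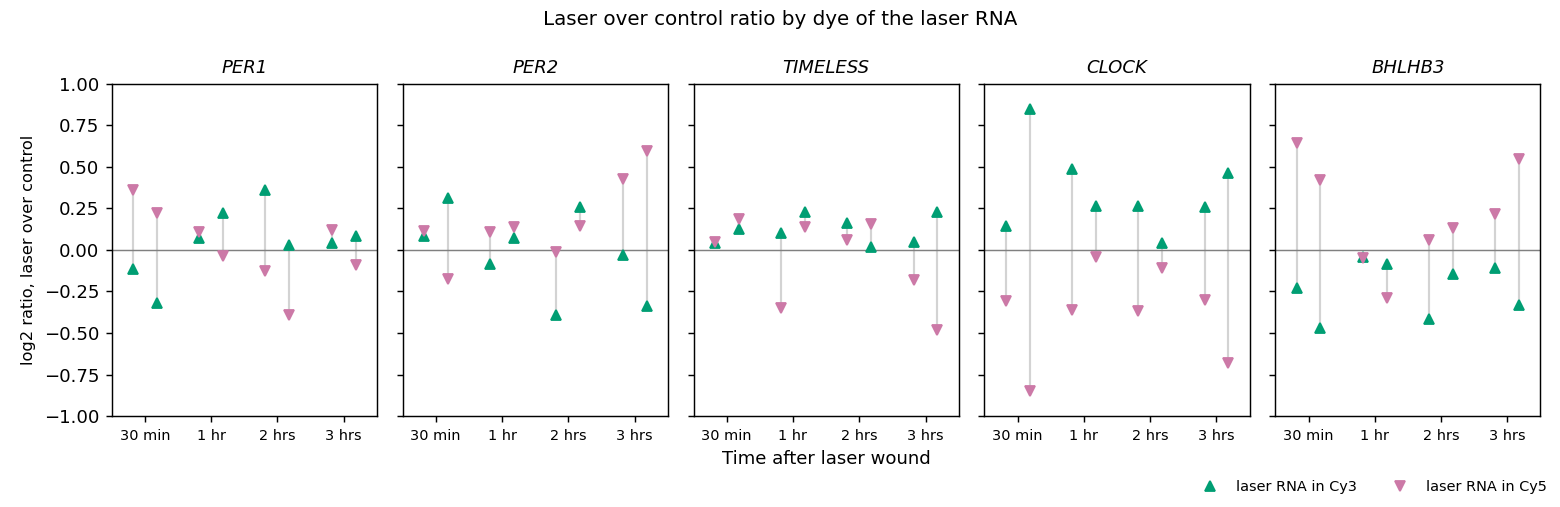
Log2 ratio of laser over control for each clock gene, from arrays whose laser RNA was in Cy3 (upward triangles) or in Cy5 (downward triangles), with a line joining both orientations of a replicate. For *CLOCK* every upward triangle is above 0 and every downward one below it.

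**Figure D4:**
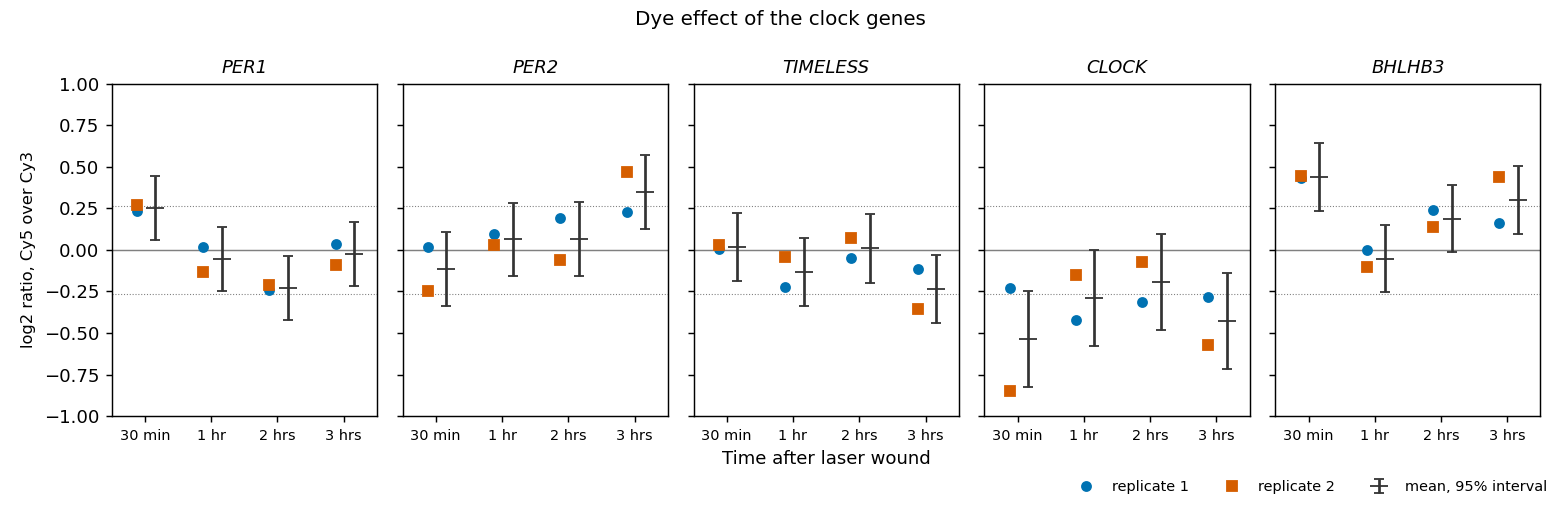
Dye effect, the log2 ratio of Cy5 over Cy3 with no array turned, for each clock gene and time point, with both replicates as points and the limma mean with its 95% interval. The dotted lines mark 1.2-fold. *CLOCK* is below 0 in all 8 replicates, and *BHLHB3* is above 0 in 6.

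The duplicate spots and the repeat arrays show how far a single reading can be trusted. The median difference between the spots of a gene on 1 array was 0.15 for *PER2*, 0.20 for *PER1*, 0.23 for *TIMELESS* and *BHLHB3* and 0.24 for *CLOCK*, where the median of all genes was 0.20. Over the 77 arrays, the 2 spots correlated with r = 0.71 for *PER2*, 0.56 for *CLOCK*, 0.53 for *PER1*, 0.46 for *TIMELESS* and 0.13 for *BHLHB3*, a description over arrays that share RNA. The spots of *BHLHB3* were thus in poor agreement, and lower values were found for 4.59% of genes. Its mean laser ratio was −0.09 from the first spot and 0.07 from the second.

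The dye effects did not depend on the spot in the same way. From the first and the second spot, the mean dye effect of *CLOCK* was −0.33 and −0.39, and that of *BHLHB3* 0.23 and 0.21. At 30 min, however, *BHLHB3* was at 0.60 on the first spot and 0.28 on the second. Both spots had the same sign in 17 of 20 dye effects and in 15 of 20 laser ratios. Repeat arrays of 1 orientation and replicate had a standard deviation between 0.30 (*TIMELESS*) and 0.41 (*BHLHB3*), against a median of 0.36 over all genes.

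The scanner headers place the arrays on 11 days. The arrays of 30 min (4 days) and of 3 hrs (2 days) shared none of their days with another time point, while those of 1 hr and 2 hrs shared 2. Differences of 30 min or 3 hrs from other time points, in levels, laser ratios and dye effects alike, therefore cannot be told apart from differences between days. Within a replicate, 17 combinations of replicate and day held both orientations, and values within them are free of differences between days. The 17 are parts of the same 8 replicates, some with 1 array in an orientation, and add no replicates. Within days, the dye effect of *CLOCK* was below 0 in 15 of 17 and that of *BHLHB3* above 0 in 15 of 17. The laser ratio of *CLOCK* was above 0 in 6 of 17, that of *PER1* in 11, *PER2* in 13, *TIMELESS* in 9 and *BHLHB3* in 9.

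The third question was whether the level of these genes changed over the hours of the experiment in unlesioned SE. The level is the log2 signal of the control RNA after normalization between arrays, and each gene is compared only with itself. Since 30 min and 3 hrs lie on days of their own, time and day cannot be told apart in these levels. *CLOCK* was highest at 30 min, with 10.17 and 10.36 in the replicates, followed by 9.92 and 9.55 (1 hr), 9.77 and 9.93 (2 hrs), and 9.44 and 9.63 (3 hrs). Both replicates of 30 min were above all 6 of the later ones. Before normalization, however, the median raw signal of *CLOCK* in control RNA was lower at 30 min (1807) than at 1 hr (2581) or 2 hrs (2531). Its median signal over background was 10.5 at 30 min and 3.31, 3.32 and 2.95 at the later time points, so the arrays of 30 min differed in background as well. The difference of 3 hrs from 30 min was −0.73 (standard error 0.22, 1.66-fold, unadjusted p = 0.00819), which did not pass adjustment over all genes (adjusted p = 0.122 in limma). That of 1 hr from 30 min was −0.53 (unadjusted p = 0.0379, adjusted p = 0.215). Of all genes, 21.8% had an unadjusted p under 0.05 and 0% an adjusted one between 30 min and 3 hrs, and 20.4% and 0.665% between 30 min and 1 hr. With channels centred on their median in place of Aquantile, the difference of 3 hrs from 30 min was −0.87 (adjusted p = 0.154). The order of the later time points was not resolved.

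*PER2* was at 9.02 and 9.58 in control RNA of 30 min, 9.02 and 8.98 (1 hr), 9.31 and 9.38 (2 hrs), and 9.58 and 9.45 (3 hrs). The levels of 3 hrs were above those of 1 hr and 2 hrs in both replicates, while 1 replicate of 30 min was as high. *PER1* stayed between 9.34 and 9.97, with both extremes in replicate 1, and *BHLHB3* between 8.15 and 8.73. *TIMELESS* was set apart by 1 replicate: at 1 hr it was at 9.81 in replicate 1 and 10.98 in replicate 2, and its other values lay between 9.56 and 10.35. The laser RNA of that replicate, read on the same arrays, was at 11.17, above all other laser samples of this gene. The raw *TIMELESS* signal of this replicate differed between days. Its arrays of header day 5 read 1755 to 2207, and those of days 2 and 3 read 6948 to 16748. Whether the high level belongs to the RNA or to those arrays was not tested. Over the 5 genes, 0 of 30 contrasts between time points had an adjusted p under 0.05, where 0.199% of all contrasts did, and 2 of 30 had an unadjusted p under 0.05, both of *CLOCK*, where 16.6% did. With channels centred on their median, 4 of 30 had an unadjusted p under 0.05 (13.5% of all contrasts), 3 of *CLOCK* and 1 of *PER2* (3 hrs against 1 hr, 0.65, unadjusted p = 0.0214, adjusted p = 0.226 in limma).

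**Figure D5:**
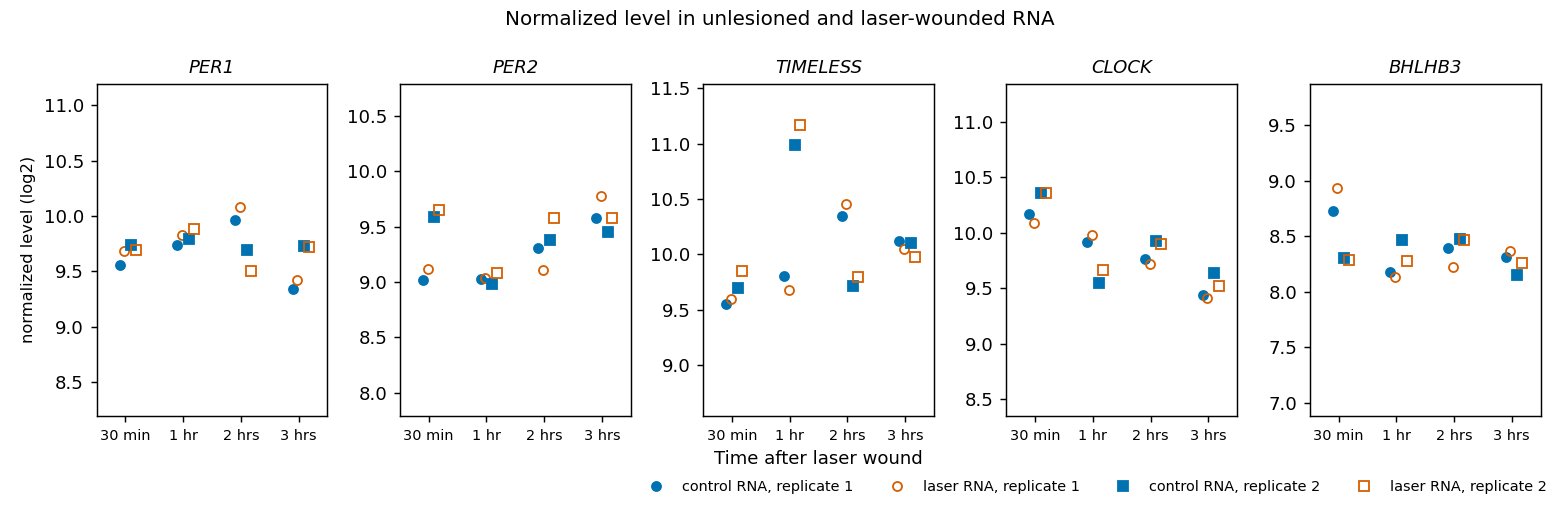
Normalized log2 level of each clock gene in control RNA (filled) and laser RNA (open) of both replicates at each time point, every panel spanning the same range of log2 units around its own mean. *CLOCK* is highest at 30 min in both replicates. *TIMELESS* in replicate 2 of 1 hr stands above its other values in both RNAs, which were read on the same arrays.

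How the genes moved together was examined over the 8 replicates in 10 gene pairs. For the laser ratio, Pearson's r ran from −0.67 to 0.53, with 3 of 10 pairs above 0. The strongest relation was negative, between *CLOCK* and its competitor *BHLHB3* (r = −0.67, exact permutation p = 0.0685, adjusted p = 0.538, and rho = −0.71, p = 0.0576, adjusted p = 0.535, n = 8), and r was −0.50 without the 2 replicates farthest from the median. Between the Period genes *PER1* and *PER2* the relation was not resolved (r = −0.48, exact permutation p = 0.215, and rho = −0.55, p = 0.171, n = 8, adjusted p = 0.538 and 0.535). Their means had the same sign at 4 of 4 time points, but that of *PER2* at 2 hrs was next to 0 (−0.0005). *PER2* and *BHLHB3* had the highest r, 0.53 (exact permutation p = 0.185, adjusted p = 0.538, rho = 0.45, p = 0.267, n = 8). None of the 10 pairs had an unadjusted p under 0.05. Within time points, the difference between replicates had the same sign in both genes of a pair in 20 of 40 cases.

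For the dye effect, *PER2* and *TIMELESS* had the strongest relation, with r = −0.82 (exact permutation p = 0.0113, adjusted p = 0.113, n = 8) and rho = −0.90 (exact permutation p = 0.00456, adjusted p = 0.0456). Without the 2 replicates farthest from the median of *PER2*, r was −0.58, and in 0 of 4 time points did the replicates of both genes differ in the same direction. The other 9 pairs had unadjusted exact permutation p-values of 0.144 or more for r (n = 8). *CLOCK* and *BHLHB3* were at r = −0.56 (exact permutation p = 0.144, adjusted p = 0.523, n = 8), which became 0.01 without the 2 farthest replicates.

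Other genes of the clock were measured on the same arrays. Of 20 listed genes besides the 5, 13 were on the array under a searched name, and the Cryptochrome genes were not among them. In the laser ratio, 0 of 13 had an adjusted p under 0.05 at any time point. At an unadjusted p under 0.05, 2 were higher (3.32% of all genes) and 2 lower (5.59%) after 30 min, and 1 was higher after 1 hr (1.33%). Later, 2 were lower at 2 hrs (5.59%) and 1 was higher at 3 hrs (2.26%). In order of time, the median of the 13 was −0.01, 0.01, −0.09 and −0.03, beside −0.00, −0.01, −0.01 and −0.00 for all genes.

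*CREB1*, the factor through which light and cAMP signals reach the Period promoters in mammals, was at 0.63 and 0.37 in the replicates at 30 min. All 4 combinations of replicate and orientation were above 0 (0.34 and 0.93 in replicate 1, 0.48 and 0.26 in replicate 2). The mean was 0.50 (standard error 0.10, unadjusted p = 0.000146, adjusted p = 0.073 in limma), and at 3 hrs it was 0.25 (unadjusted p = 0.0229, adjusted p = 0.988). *PER1* and *PER2* at 30 min were at 0.04 and 0.08, and their difference from *CREB1* was not tested. With no array turned, *CREB1* was at 0.09 at 30 min and −0.11 at 3 hrs.

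*NFIL3* (E4BP4), a repressor of Period genes in the chick pineal gland, was at 0.27 and 0.42 at 30 min (mean 0.35, unadjusted p = 0.00137, adjusted p = 0.211 in limma) and at 0.23 at 1 hr (unadjusted p = 0.0215, adjusted p = 0.999). With no array turned it was at −0.11 and −0.05. The paper reports a rise of this gene in the wounded cochlea, by quantitative PCR on new samples, at the later of these time points. At 2 hrs the replicates of *NFIL3* were at −0.11 and −0.22, and at 3 hrs they were at 0.03 and 0.21. The lower values at 30 min were those of *NR1D2* and *HLF*. *NR1D2* (REV-ERB beta, a nuclear receptor that represses *ARNTL*) was at −0.52 and −0.13. *HLF*, a PAR bZIP factor, was at −0.31 and −0.16. Their means were −0.32 (adjusted p = 0.319) and −0.23 (adjusted p = 0.413 in limma), and −0.26 and −0.07 with no array turned. For *NR1D2* the orientations gave −0.06 (Cy3) and −0.97 (Cy5) in replicate 1 and −0.06 and −0.20 in replicate 2, so the mean rested largely on 1 orientation of 1 replicate. At 2 hrs *TEF*, another PAR bZIP factor, was at −0.21 and *NPAS2*, a relative of *CLOCK*, at −0.17 (adjusted p = 0.41 and 0.446 in limma), and with no array turned at 0.12 and −0.16.

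In the dye effect averaged over time points, 5 of 13 of the other clock genes had an adjusted p under 0.05 in limma, near the 39.2% of all genes, with 1 higher in Cy5 (*ARNTL*, 0.17) and 4 higher in Cy3 (*PER3* at −0.28, *NR1D2* at −0.25, *NPAS2* at −0.15 and *RORB* at −0.14). *CLOCK*, at −0.36, lay below all of these.

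*PER1*, *PER2* and *CLOCK* also belong to the factors with a PAS domain, a fold that pairs such proteins with each other. Of 19 other PAS genes listed, 14 were on the array, and in the laser ratio 0 of 14 had an unadjusted p under 0.05 outside 2 hrs. At 2 hrs, 3 of 14 were lower at an unadjusted p under 0.05, against 5.59% of all genes, with a median of −0.10 over the 14 and −0.01 over all genes, and 0 had an adjusted p under 0.05. Like the clock list, the PAS list was chosen with earlier results of these data known, so its counts are a description only. It overlaps with the clock list in *ARNTL*, *NPAS2* and *PER3*, and *NPAS2* is among the lower genes of both at 2 hrs. The corresponding values of the PAS genes among the 5 at 2 hrs were −0.03 for *PER1*, −0.00 for *PER2* and −0.04 for *CLOCK*.

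By the correlation of the laser ratio over the 8 replicates, the genes nearest to each clock gene were *ILF1* and *STAT5B* for *PER1* (r = 0.91 and 0.89), *KIAA0874* and *FLJ21603* for *PER2* (0.95 and 0.94), *CAPNS1* and *ZNF214* for *TIMELESS* (0.82 and 0.80), *ETV2* and *HES7* for *CLOCK* (0.97 and 0.86), and *ZNF207* and *HOXC8* for *BHLHB3* (0.93 and 0.92). None of the 10 is a gene of the clock list. The number of genes with r over 0.8 differed between the 5, with 54 for *PER2*, 49 for *BHLHB3*, 11 for *CLOCK*, 7 for *PER1* and 1 for *TIMELESS*. These are the highest of 1503 coefficients each and are a description only.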

How the data were processed

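The authors deposited the intensity values of ImaGene 4.1 (per the labels), which are the mean pixel signal and mean local background of each spot in both channels, with neither background subtraction nor normalization. The authors also deposited a table of log2 ratios, laser over control, which equals the raw signal ratio to within 5.77e-15 and was used only as an alternative. Signals were corrected by normexp (offset 50), and each array was normalized by loess in limma 3.58.1 under R 4.3.3, with the 27 control names at weight 0. Duplicate spots were averaged, then the arrays of a dye orientation, then both orientations with the sign turned where the laser RNA was in Cy3. Of 1507 genes, 3 never reached a mean signal of 1000 and 1504 were tested. Means of the 4 time points, their average and 6 contrasts were fitted in limma (lmFit, eBayes) on 8 replicates, with Benjamini-Hochberg adjustment over all genes tested. The call was an adjusted p under 0.05, and the study's rule (unadjusted p under 0.05 and over 1.2-fold) was an alternative. Levels used Aquantile normalization between arrays. Correlations used exact permutation of pairings, two-sided. Precision is limited by how many replicates and arrays there are. The whole fit was tested on simulated data. The members, gene lists and tests were chosen with earlier results of these data known. Besides the 5, genes of the clock list were named at an unadjusted p under 0.05 in the laser ratio or an adjusted p under 0.05 in the mean dye effect, and 2 genes per member were named by correlation. Beyond the 20 genes counted, 1 gene of the clock list was left out of every count and is not reported here. The reference table of the chicken genome (GRCg7b) lists *PER2*, *TIMELESS* and *CLOCK* by symbol and *BHLHB3* under *BHLHE41*, and has no entry under *PER1*. The probes are human.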

Additional observations from a re-analysis of the deposited data

Results flagged for a closer look

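In the laser ratio and the dye effect of the 5 genes and the 13 other clock genes, no difference between time points had an adjusted p under 0.05 in limma.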

How the results depend on the processing

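The count of clock genes called in the laser ratio (of 20) was 0 under every alternative that used both orientations with arrays turned, including the methods' t-test over arrays (smallest p 0.0849) and each replicate left out in turn (0 to 0). It was 2 with the laser RNA in Cy5 only and 3 with no array turned, and the count in the mean over time points (of 5), otherwise 0, was 2 with the laser RNA in Cy3 only, in Cy5 only or with no array turned. In those fits the mean of *CLOCK* reversed to 0.35 (Cy3 only) and that of *BHLHB3* to 0.21 (Cy5 only) and 0.22 (none turned), by construction. The count of dye effects called (of 20, 3 in the report) was 0 after plain background subtraction, 6 with median centring, 7 in the deposited table, 1 from the first spot, 1 from medians over arrays, 8 in limma on all arrays with the replicate as a random block, 5 under the study's threshold, 1 with the header day as a random block (an alternative chosen after seeing the data), and 1 to 4 with a replicate left out. The mean dye effects called (of 5, 2 in the report) were 1 after plain background subtraction, 4 with median centring, 1 with the filter applied at every time point, which removes *BHLHB3*, 4 in the deposited table and 1 under the study's threshold. The mean dye effect of *CLOCK* was called in all of 23 alternatives but the deposited table (−0.03), and ran from −0.44 to −0.03, and that of *BHLHB3* in all of 22 but plain subtraction (0.10). In the deposited table, which holds no dye correction, the dye effect of *PER1* reversed to 0.32 at 3 hrs and 0.24 in the mean and that of *TIMELESS* to 0.14 in the mean. Some alternatives leave out 1 of the 2 replicates of a time point, and the 1 value left there cannot show whether a call is stable. With these included, the call of *CLOCK* at 30 min was lost in 11 of 23 alternatives, that of *PER2* at 3 hrs in 8 of 23 and that of *BHLHB3* at 30 min in 4 of 22. The cause of these differences was not tested. The sign of an uncalled laser ratio is not stable: 67 of 690 alternative values had another sign. Clock genes were detected in 17 of 20 combinations at a limit of 800 and in 8 at 1200. Deviations of same-numbered replicates correlated between −0.25 and 0.17 across genes, and whether samples of the same number share an origin was not tested. With a fixed term for the replicate number, shared by the time points, 0 laser ratios and 3 dye effects were called. With 2 replicates at each time point, the standard error of a laser ratio of these genes was 0.07 to 0.09.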
